A study of Mus musculus with 8 samples.

Results

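Lysosomes are the acidic organelles in which cells break down proteins, glycans and lipids, and 39 mouse genes that encode their hydrolases, membrane proteins, proton pump subunits and regulators were followed in intestinal organoids given RANKL. The 39 were taken by symbol from a given list, chosen with earlier results of these data known, among 54532 genes listed with Ensembl identifiers. The rule itself uses no measured value. RANKL is the TNF-family ligand of the receptor RANK, which signals largely through NF-κB, and the comparison asked how the transcripts of the epithelium responded to it. Organoids are small epithelial structures with buds, grown from intestinal crypts in Matrigel, here in a medium with EGF, NOGGIN and R-spondin. Poly(A) RNA was read from its 3′ end in 8 libraries, 4 control organoid libraries and 4 libraries of organoids treated with RANKL. The labels give the tissue and the treatment alone. The study kept its mouse lines on a C57BL/6J background and states a broad age range for its mice as a whole. The genotype and age of the mice behind these organoids, how much RANKL these libraries were given and for how long, and whether the 4 libraries of a group came from separate cultures or animals are not given in the sources used here, so p-values measure only the spread between these samples, which may be technical.

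Lysosomal hydrolases are made in the endoplasmic reticulum, tagged for sorting in the Golgi and activated at the low pH that the vacuolar H+-ATPase maintains. Their membrane is lined with glycoproteins such as LAMP1 and LAMP2, and many of their genes carry an E-box through which the transcription factor TFEB can raise lysosome production. In the intestine, lysosomes serve uptake and degradation of luminal material and autophagy in the epithelium. Cathepsins and the proton pump are also known from the osteoclast, the bone-resorbing cell that forms in response to RANKL.

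RANKL did not move the 39 genes as a block. Of the 35 with enough counts to be tested, 8 were higher with RANKL (Ctsh, Npc1, Psap, Man2b1, Gusb, Cd63, Lamp1 and Atp6v1a), 5 were lower (Grn, Ppt1, Glb1, Ctsa and Tfeb) and 22 did not pass the threshold. A gene passed where edgeR's quasi-likelihood test, with p-values adjusted by Benjamini-Hochberg across 9971 genes, gave an adjusted p of at most 0.05. The 13 genes past it are 37.1% of the 35, beside 25.9% of all genes tested. Those higher are 22.9%, beside 13.6% of all genes, and those lower are 14.3%, beside 12.4%. The median log2 fold change of the 35 was 0.01 and that of all genes 0.0002, and the median size of the change was 0.33 against 0.26. Among the 35, Ctsh alone changed by at least 1 on the log2 scale, a size that 5.8% of all genes tested reached.

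**Figure D1:**
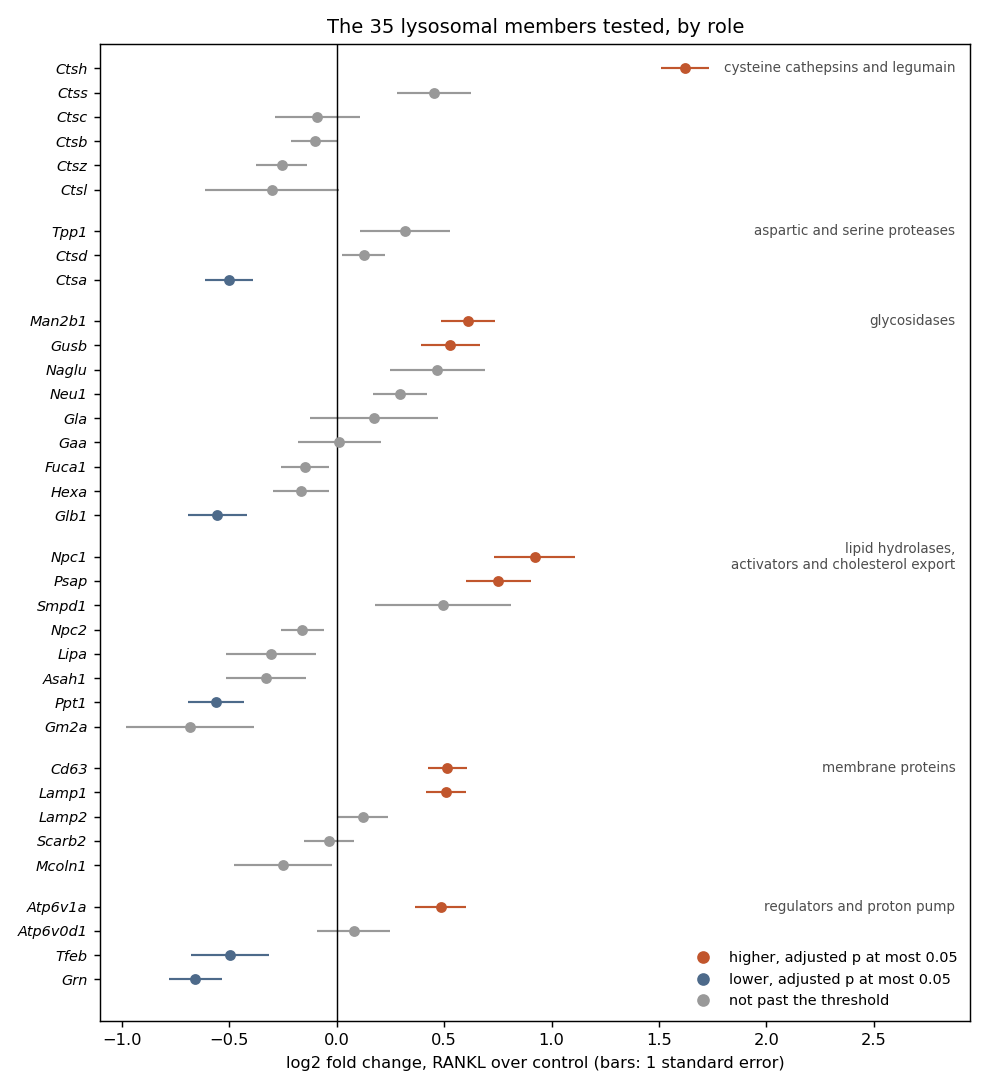
Log2 fold change of RANKL over control for the 35 tested genes on the horizontal axis, with bars of 1 standard error, grouped by role. Ctsh stands at 1.62, the other 7 higher genes lie between 0.48 and 0.92, and the 5 lower genes lie between -0.66 and -0.50.

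The libraries differed in depth, from 583663 to 7807298 counts, with the control libraries at 7807298, 3719445, 4104171 and 583663 counts and the RANKL libraries at 613135, 1438710, 1923354 and 1788110. A single count was worth 1.71 CPM, a gene's counts per 1e6 counts of its library, in control replicate 4 and 0.128 in control replicate 1 before scaling. All levels below are CPM scaled by TMM, a factor that aligns libraries on the bulk of their genes, in the order of replicates 1 to 4. Markers of the small intestinal epithelium were present in every library, with a summed level of 7990 to 8584 CPM over 10 genes in control and 7670 to 8135 with RANKL, although Krt18 and Krt19 were lower and Cdx1 higher among those 10. The 12 markers of M cells, the antigen-sampling epithelial cells that RANKL induces, summed to 136.9 to 182.5 CPM in control and 2170 to 2508 with RANKL. Spib made up most of the RANKL sum, at 2.28 to 5.37 CPM in control and 1489 to 1760 with RANKL. Of the 12 markers, 8 of 8 tested were higher, and Gp2, which marks mature M cells, had no count in any library. The 14 markers of macrophages and dendritic cells, which are rich in lysosomes, summed to 5.16 to 11.7 CPM in control and 11.0 to 24.2 with RANKL. None of those 14 had enough counts for a test, and C1qb, C1qc, Itgax and Tyrobp were at 0 counts. The 8 fibroblast markers summed to 15.4 to 37.8 CPM in control and 28.9 to 43.6 with RANKL. Of the 2 tested, Pdgfrb was higher, at 2.16 to 5.37 CPM in control and 17.2 to 23.5 with RANKL, and Vim did not pass the threshold, while Dcn had no count. In bulk RNA, a change in the number of cells of one type and a change in transcript level per cell cannot be told apart. The part of these other cell type markers in the results on the lysosomal genes was not tested.

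Promoters were searched for the E-box core CACGTG, the centre of the element that TFEB binds. RefSeq promoter windows on GRCm38.p6, each with 250 bases before and 50 bases from the transcription start, were held for 34 of the 39 genes, in 39 windows. No window was held for Asah1, Ctsb, Ctse, Ctsh and Npc1. Ctsh and Npc1, the genes with the largest rises among the 39, were therefore not searched. The core, which reads the same on both strands, was in 13 windows (33.3%), beside 7.15% of all 32851 windows. It was found in 2 of 6 higher genes with a window, 2 of 5 lower ones, 7 of 20 that did not pass the threshold and 2 of 3 that could not be tested, so both directions of change held it. The changed genes that held the core, and are printed for that reason, were Lamp1 and Atp6v1a, higher with RANKL, and Ctsa and Glb1, lower. Their upstream stretches, 5′ to 3′ on the gene's own strand with the core in capitals, are these:
Lamp1, chr8:13159061-13159160, plus strand, ending at the base before the start: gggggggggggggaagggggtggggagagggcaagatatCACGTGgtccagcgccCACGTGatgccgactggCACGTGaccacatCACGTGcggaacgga
Atp6v1a, chr16:44139306-44139419, minus strand, 47 bases and more before the start: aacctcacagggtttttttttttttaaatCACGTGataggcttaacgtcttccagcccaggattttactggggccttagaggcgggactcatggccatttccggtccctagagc
Ctsa, chr2:164833743-164833772, plus strand, ending at the base before the start of its downstream window: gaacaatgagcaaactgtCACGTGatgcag
Glb1, chr9:114400978-114401075, plus strand, ending 3 bases before the start: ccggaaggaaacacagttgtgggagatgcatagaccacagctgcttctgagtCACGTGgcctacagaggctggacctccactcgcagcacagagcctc

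Lamp1 held the core 4 times within 61 bases of its start, a number that 8 of the 32851 windows reached. The downstream Ctsa window held a further core, 5 bases past its start and outside the printed stretch. In the GENCODE M21 annotation the Lamp1 and Glb1 stretches lie outside any gene, the Atp6v1a stretch lies in an intron of Atp6v1a transcripts that start further upstream, and the Ctsa stretch lies in an exon of other Ctsa transcripts. The longer palindrome TCACGTGA, which contains the core, was in 6 windows (15.4%, beside 0.974% of all), of Atp6v1a, Ctsa, Ctsd, Gla, Mcoln1 and Atp6v0d1. A match to the NF-κB consensus, searched on both strands, was in 7 windows (17.9%, beside 8.46% of all), of Lamp1, Psap, Grn, Ctsz, Lgmn, Neu1 and Scarb2. By call, it was held by 2 of 6 higher genes with a window and 1 of 5 lower ones. It was in 3 of 20 that did not pass the threshold and 1 of 3 not tested. For Psap and Lgmn the match lay only in the window of the more downstream start. A match is a description of these letters and does not show that a factor binds there.

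**Figure D2:**
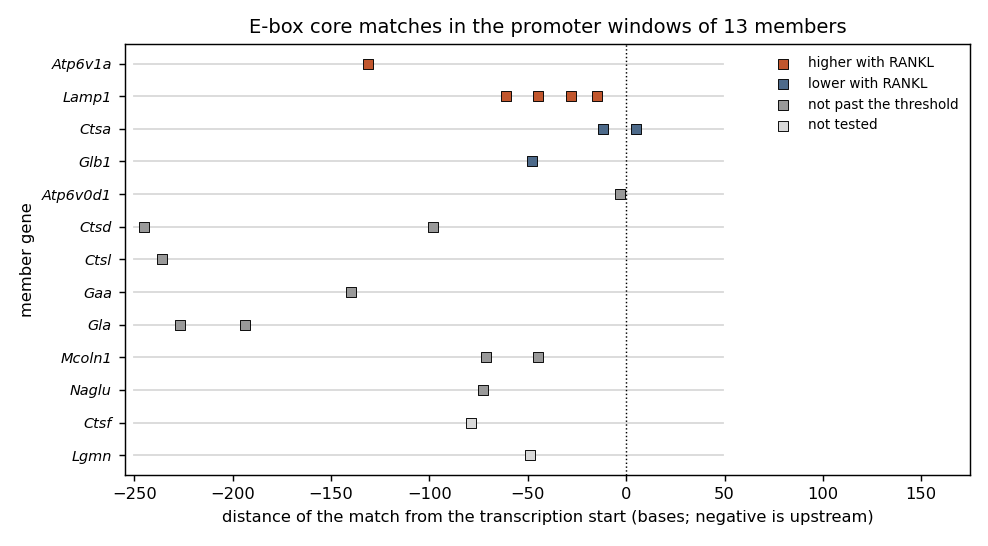
Distance in bases from the first base of each E-box core match to the transcription start (horizontal axis, negative is upstream) in the promoter windows of the 13 genes that held one (rows, coloured by the call with RANKL). Lamp1 held 4 matches between 61 and 15 bases upstream, and matches stood in genes of every call.

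Cysteine cathepsins are papain-like proteases that cut proteins inside the lysosome. Ctsh encodes cathepsin H, mainly an aminopeptidase (ENSMUSG00000032359, chr9:90054152-90076089). Its level was 56.3, 59.8, 68.4 and 60.2 CPM in control and 199, 193, 187 and 177 CPM with RANKL. The groups were far apart, and the lowest RANKL library was more than 2 times the highest control library. Ctsh was 3.07-fold higher (log2 fold change 1.62, SE 0.11, 95% interval 1.39 to 1.85, adjusted p = 8.5e-13), and the exact two-sided permutation test gave p = 0.0286, the smallest that 70 assignments of the libraries allow and the value for each of the 12 genes past the threshold whose groups did not overlap. Over all genes tested, 193 had a larger log2 fold change than Ctsh. The M cell markers above were higher in the same libraries, and whether the Ctsh transcripts came from those cells was not tested.

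The other cysteine cathepsins did not pass the threshold. Ctss, whose product trims the invariant chain of MHC class II, lay just outside it at 28.4, 23.9, 21.5 and 17.2 CPM in control and 40.4, 33.7, 32.3 and 30.2 with RANKL. Its groups did not overlap, which held for 24.6% of all genes tested, but the log2 fold change of 0.45 (SE 0.17) had an adjusted p of 0.051. Over 17 alternative settings that p ran from 0.016 to 0.16. Ctsb, the abundant cathepsin B, gave 124, 134, 148 and 143 CPM in control and 145, 116, 124 and 127 with RANKL, a log2 difference of -0.10 with a 95% interval of -0.33 to 0.12. Ctsz, a carboxypeptidase, had 224 to 351 CPM in control and 207 to 266 with RANKL (log2 fold change -0.26, adjusted p = 0.12). Ctsc, the dipeptidyl peptidase that activates serine proteases of immune cells, had 20 to 40.7 against 26.9 to 32.3 CPM. Ctsl, cathepsin L, was low in both groups, at 6.08 to 12.0 and 4.13 to 7.69 CPM. Its log2 fold change of -0.30 (SE 0.31) does not fix a direction. Exons of Gm49230 lie over those of Ctsl on the same strand, with 0 counts against 148 for Ctsl. The assignment of reads in these shared exons is uncertain, so the level of Ctsl may be understated.

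Ctsf had 17 counts over the control and 5 over the RANKL libraries, and Lgmn, the asparaginyl endopeptidase that processes cathepsins, had 66 and 11. Neither was tested. Lgmn reached 1.72 to 4.46 CPM in control and 0 to 4.39 with RANKL, and the single library at 0 was RANKL replicate 3.

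Among the aspartic and serine proteases, Ctsa was lower with RANKL. It encodes cathepsin A, a carboxypeptidase that also protects β-galactosidase and neuraminidase in a complex (ENSMUSG00000017760, chr2:164832873-164841032). Ctsa had 374, 306, 416 and 308 CPM in control and 278, 259.5, 259 and 212 with RANKL. The groups did not overlap, and control replicates 2 and 4 were the closest to RANKL. Ctsa had a log2 fold change of -0.50 (SE 0.11, 95% interval -0.73 to -0.27, adjusted p = 0.00096). Ctsd, cathepsin D, the chief aspartic protease of the lysosome, had 476 to 606 CPM in control and 565 to 655 with RANKL. Its log2 fold change of 0.13 (95% interval -0.08 to 0.33) did not pass the threshold. Tpp1, tripeptidyl peptidase, did not either, at 12.0 to 19.7 and 15.7 to 25.3 CPM. Exons of Gm49369 lie over those of Ctsd on the same strand, with 0 counts against 11872 for Ctsd. The assignment of reads in these shared exons is uncertain. Ctse, cathepsin E, had 1 count, in RANKL replicate 2. The control libraries together had none, which allows up to 0.185 CPM over their summed depth, counting error only.

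Glycosidases strip sugars from glycoproteins, glycolipids and glycosaminoglycans. Man2b1, the lysosomal α-mannosidase (ENSMUSG00000005142, chr8:85083270-85098282), rose from 64.7, 69.2, 64.4 and 61.9 CPM in control to 113, 77.8, 100.1 and 113 with RANKL. RANKL replicate 2 was the closest to control and still lay above every control library. Man2b1 had a log2 fold change of 0.61 (SE 0.13, adjusted p = 0.00041). Gusb, β-glucuronidase (ENSMUSG00000025534, chr5:129989011-130003049), rose from 44.3, 37.6, 40.5 and 43.0 CPM to 56.5, 53.0, 58.9 and 67.5. Its log2 fold change was 0.53 (SE 0.14, adjusted p = 0.0043), without overlap of the groups.

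Glb1, the acid β-galactosidase (ENSMUSG00000045594, chr9:114401076-114474898), went the other way. It had 86.5, 81.8, 75.3 and 87.7 CPM in control and 74.3, 43.4, 57.4 and 56.0 with RANKL. RANKL replicate 1 came close to control replicate 3, and the other RANKL libraries were well below. The log2 fold change was -0.56 (SE 0.14, adjusted p = 0.0024). Exons of Tmppe lie over those of Glb1 on the same strand and had 45 counts, against 1653 for Glb1, and the assignment of reads in the shared exons is uncertain.

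The other 6 tested glycosidases did not pass the threshold. Neu1, the sialidase of the cathepsin A complex, had 60.2 to 62.8 CPM in control and 65.4 to 87.2 with RANKL, apart from each other in every library, with a log2 fold change of 0.29 and an adjusted p of 0.083. Naglu, which acts on heparan sulfate, had 5.16 to 17.6 and 16.1 to 22.5 CPM (log2 fold change 0.47, adjusted p = 0.12). The lowest of these, in control replicate 4, rested on 3 counts, and with log2 library total as a covariate the log2 fold change of Naglu was 1.09 (adjusted p = 0.011). Fuca1, a fucosidase, had 183 to 254 and 173 to 201 CPM, and Hexa, the α subunit of hexosaminidase, had 61.4 to 80.8 and 53.7 to 66.8. Gaa, the acid glucosidase that degrades glycogen, gave a log2 fold change of 0.01 (95% interval -0.38 to 0.41). Gla, α-galactosidase A, gave 0.17 (95% interval -0.44 to 0.78). Manba, β-mannosidase, was not tested, with 44 counts in control and 16 with RANKL.

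Lipid breakdown in the lysosome needs hydrolases, the small activator proteins that lift lipids out of membranes, and the NPC proteins that export cholesterol. Npc1, the membrane cholesterol transporter (ENSMUSG00000024413), showed the next highest log2 fold change after Ctsh. It had 16.9, 15.8, 18.5 and 10.3 CPM in control and 42.0, 33.7, 27.6 and 28.0 with RANKL. All RANKL libraries lay above all controls, and the value of control replicate 4 rested on 6 counts. Npc1 had a log2 fold change of 0.92 (SE 0.19, 95% interval 0.54 to 1.31, adjusted p = 0.00038). Npc2, the soluble protein that hands cholesterol to NPC1, did not move with it, at 712 to 942 CPM in control and 629 to 792 with RANKL. Its log2 fold change was -0.16 (95% interval -0.37 to 0.05).

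Psap encodes prosaposin, the precursor of the saposins that activate sphingolipid hydrolases (ENSMUSG00000004207, chr10:60277627-60302597). Its levels were 94.6, 77.5, 55.8 and 74.0 CPM in control and 134, 97.0, 118 and 165 with RANKL. Both groups were spread widely, and control replicate 1 and RANKL replicate 2 nearly met. Psap had a log2 fold change of 0.75 (SE 0.15, adjusted p = 0.00031).

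Ppt1, palmitoyl-protein thioesterase, which removes fatty acids from proteins (ENSMUSG00000028657, chr4:122836242-122859175), was lower with RANKL. It had 67.3, 61.7, 71.2 and 67.1 CPM in control and 38.8, 46.1, 48.0 and 45 with RANKL, with tight groups on both sides. Ppt1 had a log2 fold change of -0.56 (SE 0.13, adjusted p = 0.0016). Gm2a, the GM2 activator, had a log2 fold change of -0.68 with an SE of 0.30 and an adjusted p of 0.094. Control replicate 4, at 1.72 CPM, held 1 count of Gm2a, while the other control libraries had 11.5 to 15.8 CPM and the RANKL libraries 6.59 to 9.69. Without control replicate 4 the adjusted p of Gm2a was 0.028. Lipa, the acid lipase, had 16.5 to 18.9 and 11.5 to 17.0 CPM, Asah1, acid ceramidase, had 24.1 to 41.3 and 20.3 to 24.8, and Smpd1, acid sphingomyelinase, had 3.55 to 6.88 and 5.74 to 9.34. None of these 3 passed the threshold.

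**Figure D3:**
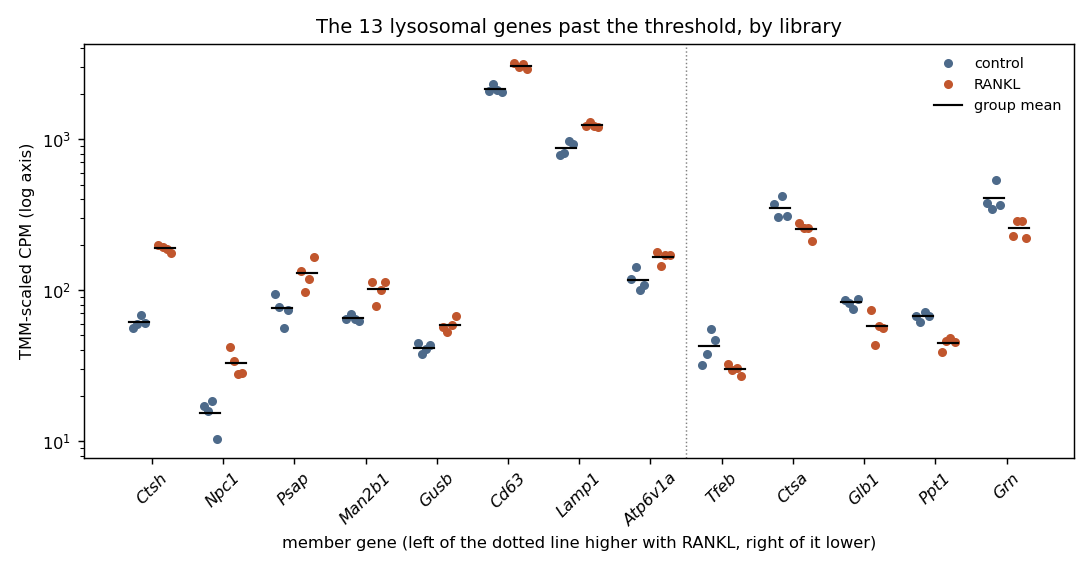
TMM-scaled CPM (log axis) in each of the 4 control and 4 RANKL libraries, drawn left to right as replicates 1 to 4, for the 13 genes past the threshold, with group means as black lines. The groups do not overlap for 12 of the 13 genes, and overlap for Tfeb. The 13 were picked by a test on these same libraries, and 24.6% of all genes tested had groups that did not overlap.

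Of the lysosomal membrane proteins, Cd63 and Lamp1 were higher with RANKL. Cd63, a tetraspanin of late endosomes, lysosomes and exosomes (ENSMUSG00000025351, chr10:128900989-128912822), had 2095, 2303, 2103 and 2058 CPM in control and 3201, 2991, 3135 and 2918 with RANKL. The spread within each group was small beside the gap between the groups. Cd63 had a log2 fold change of 0.52 (SE 0.09, 95% interval 0.33 to 0.70, adjusted p = 5.8e-05). Lamp1, the major glycoprotein of the lysosomal membrane (ENSMUSG00000031447, chr8:13159161-13175338), had 786, 803, 967 and 922 CPM in control and 1221, 1288, 1225 and 1204 with RANKL. Its log2 fold change was 0.51 (SE 0.09, 95% interval 0.32 to 0.70, adjusted p = 0.00011).

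Lamp2, the close relative of Lamp1 that also serves chaperone-mediated autophagy, did not pass the threshold. It had 74.0 to 86.4 CPM in control and 77.5 to 95 with RANKL, a log2 fold change of 0.12 (95% interval -0.12 to 0.36). Scarb2, the receptor that carries glucocerebrosidase to the lysosome, had 80.6 to 97.9 and 80.3 to 93.4 CPM and a log2 difference of -0.04 (95% interval -0.28 to 0.20). Mcoln1, the calcium channel of the lysosomal membrane, varied widely in control, from 17.2 to 38.3 CPM, and spanned 16.5 to 30.8 with RANKL.

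The last group holds regulators and subunits of the proton pump. Grn encodes progranulin, a secreted and lysosomal protein that is needed for normal lysosome function (ENSMUSG00000034708, chr11:102430315-102437048). It had 378, 342, 532 and 368 CPM in control and 228, 287, 288 and 222 with RANKL. Control replicate 3 stood above the other control libraries, and all 4 RANKL libraries lay below all 4 controls. The log2 fold change was -0.66 (SE 0.12, 95% interval -0.91 to -0.41, adjusted p = 0.00013), and it was -0.49 without control replicate 3. Control replicate 3 was the highest control library for 4 of the 5 lower genes and for 3 of the 8 higher ones. It also stood apart over genes in general. A chi-square per degree of freedom over genes with enough counts was 13.1 between control replicates 1 and 3 and 8.75 between replicates 2 and 3. It was 4.02 between replicates 1 and 2 and 2.54 between replicates 3 and 4, and deeper pairs give larger values. The cause was not tested.

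Tfeb, the transcription factor of lysosome production (ENSMUSG00000023990, chr17:47737030-47792419), was the weakest of the 13. It had 31.7, 37.6, 55.0 and 46.4 CPM in control and 32.3, 29.6, 30.2 and 26.9 with RANKL, and RANKL replicate 1 lay above control replicate 1. The Tfeb log2 fold change of -0.50 (SE 0.18) had an adjusted p of 0.041, with an exact permutation p of 0.0571, and the call was lost without any 1 of 6 libraries (control replicates 3 and 4 and each RANKL replicate), with an adjusted p of up to 0.24 over the alternatives. Tfe3, which acts alongside TFEB, did not pass the threshold (log2 fold change 0.09, SE 0.14), and Mitf and Tfec were not tested, with 17 and 3 counts over the 8 libraries.

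Atp6v1a, the catalytic subunit of the vacuolar H+-ATPase (ENSMUSG00000052459, chr16:44085402-44139705), was higher with RANKL. It had 119, 143, 99.3 and 108 CPM in control and 179, 145, 170.5 and 171 with RANKL. Control replicate 2 and RANKL replicate 2 nearly met. Atp6v1a had a log2 fold change of 0.48 (SE 0.12, adjusted p = 0.0024). Atp6v0d1, a subunit of the membrane sector, had 25.0 to 34.2 and 27.4 to 32.3 CPM and a log2 difference of 0.08 (95% interval -0.27 to 0.43).

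Summed over the 39 genes, the level was 6589, 6712, 7411 and 6724 CPM in control and 8226, 8113, 8128 and 7724 with RANKL. The RANKL libraries lay above the control libraries, with a ratio of means of 1.17. The difference rested on Cd63 and Lamp1. Without Cd63 the sums were 4409 to 5308 CPM in control and 4806 to 5122 with RANKL, and without both genes they were 3606 to 4341 and 3602 to 3834, a ratio of 0.97. These sums are shares of the reads and not amounts of RNA per cell.

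**Figure D4:**
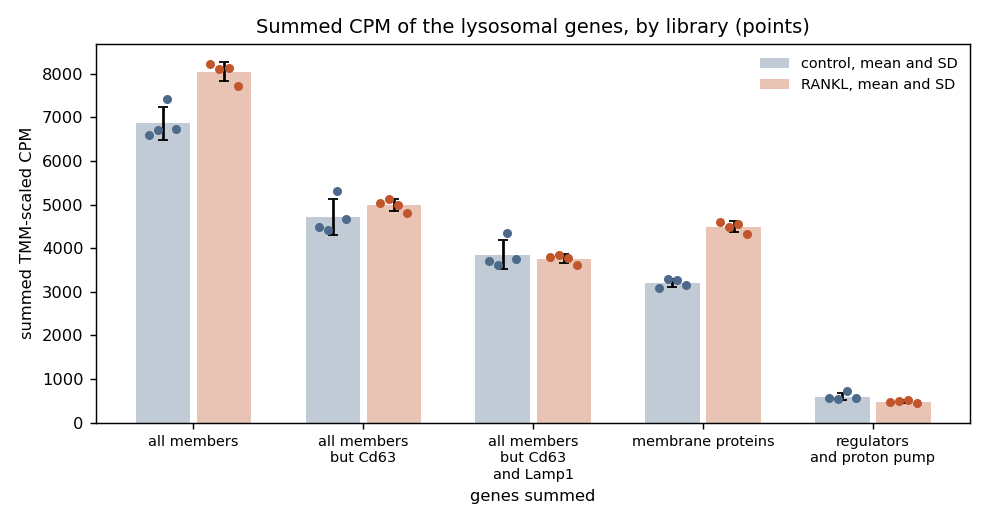
Summed TMM-scaled CPM per library (points) with group mean (bars) and SD (error bars, n = 4 a group) for all 39 genes, for the 39 without Cd63 and without Cd63 and Lamp1, for the 5 membrane proteins and for the 4 regulators and pump subunits. The groups separate for all 39 genes (6589 to 7411 against 7724 to 8226 CPM) and overlap once Cd63 is left out of them. They also separate for the membrane proteins, which include Cd63 and Lamp1 (3094 to 3303 against 4327 to 4606 CPM). For the regulators and pump subunits the RANKL libraries lie below the control libraries (547 to 720 CPM in control against 448 to 521).

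The spread between replicates differed among the 39 genes. Over the 35 tested, the coefficient of variation of the 4 control libraries ran from 1.94% for Neu1 to 58.7% for Gm2a, with a median of 15.2%. In the RANKL libraries it ran from 3.01% for Lamp1 to 35.4% for Gla, with a median of 11.0%. Of the 35 genes, 14 (40%) had groups that did not overlap, beside 24.6% of all genes tested: 12 of the 13 past the threshold, with Ctss and Neu1. The last 500 bases of the transcripts, where 3′ reads fall, had a median GC content of 47.8% for the 8 higher genes, 53.6% for the 5 lower ones and 48.8% for the 22 others, and all 13 calls stayed in a fit with the GC trend removed.

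The wider lysosomal machinery was counted in 7 lists that hold none of the 39 genes. Of 192 matched genes, 156 were tested, of which 34 were higher, 12 were lower and 110 did not pass the threshold. The count of higher genes was 16 without RANKL replicate 4 and 22 with no filter on low counts, and the count of lower genes was 6 with log2 library total as a covariate. The 46 past the threshold are 29.5% of the 156, beside 25.9% of all genes. By direction, 34 of the 156 were higher and 12 lower, where 13.6% of all genes tested were higher and 12.4% lower. The median log2 fold change of the 156 was 0.17, and that of all genes 0.0002.

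Among the other subunits of the proton pump, 5 of 15 tested were higher (Atp6v0b, Atp6v0e, Atp6v1d, Atp6v1f and Atp6v1h) and 2 were lower (Atp6v0a2 and Atp6ap1), together 46.7% beside 25.9% of all genes. Atp6v1d, of the rotor stalk, had 41.9, 48.3, 36.8 and 34.4 CPM in control and 69.4, 61.3, 59.5 and 66.5 with RANKL (log2 fold change 0.61, adjusted p = 0.0011). Atp6v1h, a regulatory subunit, had 18.2, 20.4, 18.5 and 25.8 against 40.4, 26.2, 24.0 and 28.6 CPM, groups that overlapped (log2 fold change 0.53, adjusted p = 0.035), and 10 of 17 alternatives lost its call. Atp6v0d2, the subunit known from osteoclasts, had no count in any library, and Ctsk, the osteoclast cathepsin, had 1 count.

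Among the other hydrolases, 3 of 24 tested were higher and 2 lower, together 20.8% beside 25.9% of all genes. Arsa, arylsulfatase A, rose from 3.29 to 4.29 CPM in control to 8.26 to 14.5 with RANKL (log2 fold change 1.45, adjusted p = 0.00036). Naaa, an acid amidase for N-acylethanolamines, fell from 17.2 to 39.8 CPM to 11.5 to 24.8 (log2 fold change -0.86, adjusted p = 0.0071), with overlapping groups, and 3 of 16 alternatives lost its call (adjusted p up to 0.18), among them the one without RANKL replicate 3 (adjusted p = 0.055). Acp5, the tartrate-resistant phosphatase of osteoclasts, was detected and did not pass the threshold (log2 fold change -0.25, SE 0.13).

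Among other membrane proteins and transporters, 8 of 27 tested were higher and 4 lower, together 44.4% beside 25.9% of all genes. Mcoln2, a relative of Mcoln1, fell from 11.5 to 22.4 CPM in control to 4.13 to 8.34 with RANKL (log2 fold change -1.41, adjusted p = 0.00037). Tspan3, a tetraspanin like Cd63, rose from 114 to 193 CPM to 260.2 to 354 (log2 fold change 0.99, adjusted p = 7.6e-07). In both genes the groups were apart.

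Of the genes for maturation and sorting of lysosomal enzymes, 5 of 30 tested were higher and 1, Cln6, was lower, together 20% beside 25.9% of all genes. Vps18 and Vps39 encode subunits of HOPS, the complex that tethers late endosomes to lysosomes. Vps18 had 18.9 to 26.5 CPM in control and 46.8 to 64.6 with RANKL (log2 fold change 1.12, adjusted p = 1.2e-06). Vps39 had 9.29 to 13.8 and 20.9 to 25.8 CPM (log2 fold change 1.17, adjusted p = 8.1e-05). The other 4 HOPS subunits, Vps11, Vps16, Vps33a and Vps41, did not pass the threshold, with log2 fold changes from -0.0045 for Vps41 to 0.22 for Vps16. Of 23 tested genes around TFEB relatives and mTORC1 on the lysosome, 5 were higher and 1 lower, together 26.1% beside 25.9% of all genes. Arl8a and Arl8b, small GTPases that move lysosomes along microtubules, were both higher, at log2 fold changes of 0.88 (adjusted p = 0.00022) and 0.74 (adjusted p = 3.7e-06). Arl8b had 117 to 154 CPM in control and 207 to 238 with RANKL.

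In the autophagy list, 6 of 34 tested were higher and 2 lower, together 23.5% beside 25.9% of all genes. Wipi1, which binds the lipid of the growing autophagosome, had 47.2 to 55.0 CPM in control and 100.1 to 110.0 with RANKL (log2 fold change 1.12, adjusted p = 7.6e-09). Uvrag, of the class III PI3-kinase complex, had 6.88 to 9.68 and 11.3 to 24.5 CPM (log2 fold change 1.17, adjusted p = 0.00025). Among cystatins, inhibitors of the cysteine cathepsins, 2 of 3 tested were higher, too few for a share. Cst6 had 2.28 to 5.16 CPM in control and 6.46 to 14.3 with RANKL (log2 fold change 1.84, adjusted p = 4.7e-05), and Cstb had 26.6 to 51.6 and 52.1 to 64.3 (log2 fold change 0.61, adjusted p = 0.0051). Cstb lost its call with log2 library total as covariate (adjusted p = 0.074). Cst3, the third, had a log2 fold change of 0.04 (SE 0.12).

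**Figure D5:**
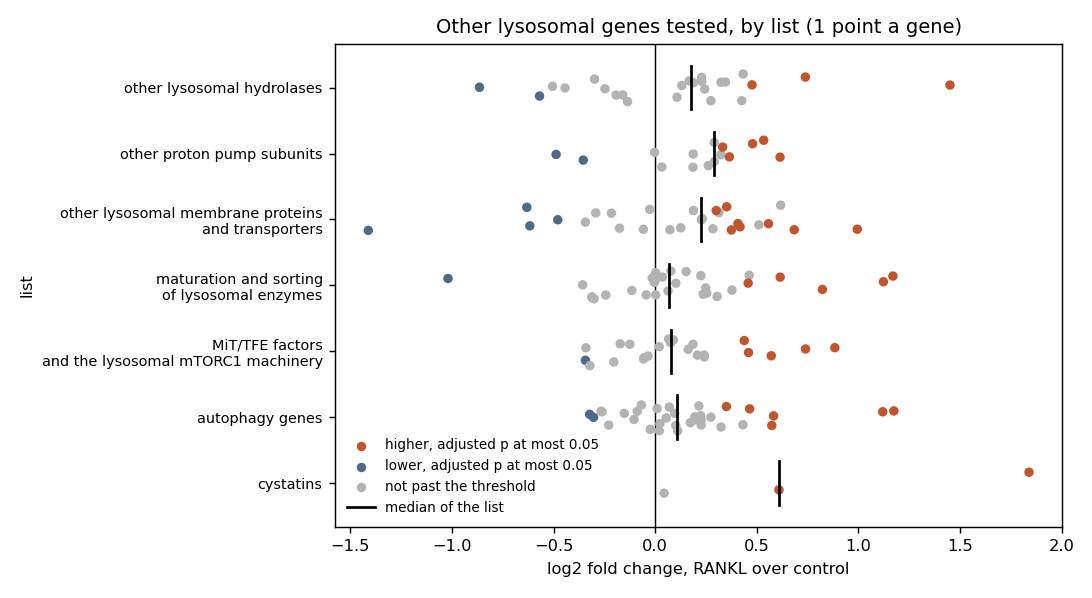
Log2 fold change of RANKL over control (horizontal axis) for each of the 156 tested genes of the 7 other lysosomal lists (rows, vertical scatter without meaning), coloured by call, with the median of each list as a black line. Medians lie between 0.07 for maturation and sorting and 0.61 for the 3 cystatins, and every list but the cystatins holds genes called in both directions.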

How the data were processed

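Per the labels and the study's methods, the authors prepared QuantSeq FWD 3′ libraries (single reads of 50 bases), trimmed reads with BBDuk 38.06, removed abundant sequences with bowtie2 2.3.4.1, aligned to GRCm38 (Ensembl release 94) with STAR 2.6.0c and deposited raw counts per gene from featureCounts (subread 1.6.2), with strand. Here, Ensembl identifiers were matched to symbols through GENCODE M21 (54495 of 54532 matched). The 39 genes and all lists were chosen with earlier results of these data known. The 4 control and 4 RANKL libraries were compared with edgeR 4.0.16 (R 4.3.3; TMM, filterByExpr, quasi-likelihood test, group alone, Benjamini-Hochberg adjustment over 9971 genes, threshold 0.05). Fitted fold changes weigh deeper libraries more than ratios of group means do, and 95% intervals are not adjusted. Named genes of the wider lists are those 2 of each list past the threshold with the largest change at a mean of at least 5 CPM. Any other gene named from those lists or from the markers was chosen after its values were seen. On simulated counts the fit recovered 198 of 200 changed genes among 9846, with 11 false calls. Those 200 were drawn from the more highly expressed genes and changed by 2-fold or more. Recovery of smaller changes, such as most of those reported here, and of low genes was not tried. Alternatives were DESeq2 1.42.0, limma 3.58.1, scalings, filters, covariates and each library left out. Depth ran from 583663 to 7807298 counts.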

Additional observations from a re-analysis of the deposited data

How the results depend on the processing

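Over 17 alternatives, the 8 higher genes and Grn, Ppt1, Glb1 and Ctsa stayed past the threshold wherever they could be tested. Npc1 could not be tested where at least 10 counts in every library were required. Higher members numbered 8 to 10 and lower members 4 to 6. Tfeb lost its call with the DESeq2 Wald test, with limma-voom and without each of 6 libraries. Ctss (5 alternatives), Naglu (2), Asah1 and Gm2a (1 each) gained one. Calls over all genes ran from 1827 with log2 library total as covariate to 2634 with the GC trend of transcript ends removed, an alternative chosen after seeing the data, against 2587. Leaving out 1 library gave 1853 to 2601, with the fewest without RANKL replicate 4. In the wider lists, the 34 higher genes became 22 with no filter on low counts and 16 to 34 when 1 library was left out, and the 12 lower genes became 6 with log2 library total as covariate. The cause was not tested. No scaling moved the median log2 fold change of all genes by more than 0.0247.

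Changes of sign arose in 5 genes that did not pass the threshold. With log2 library total as covariate the log2 fold change was 0.061 for Ctsc, -0.209 for Gaa, 0.028 for Scarb2 and 0.08 for Mcoln1, and with no filter it was -0.032 for Gaa. When 1 library was left out, Ctsc ran from -0.291 to 0.18, Gaa from -0.087 to 0.114, Gla from -0.074 to 0.315 and Scarb2 from -0.101 to 0.021.

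The labels number the libraries 1 to 4 in both groups, and no clear sign was seen that these numbers pair them. Deviations of same-numbered libraries from their group means correlated at -0.033 to 0.101, and those of other pairs at -0.134 to 0.086. With 4 libraries a group and unequal depth, such correlations cannot exclude a pairing. With the replicate block, 2610 genes passed the threshold. Among the 39 genes all 13 calls stayed and Ctss was added (adjusted p = 0.016), and the log2 fold change was 0.051 for Ctsc and -0.02 for Gaa. Not every library correlated best with its own number.

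Depth limits the low genes: in the shallowest library 3 counts are worth 5.14 CPM, above or near the level of Smpd1, Gla and the 4 genes that could not be tested.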
